A study of Mus musculus with 2 samples.

Results

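Pericytes and vascular smooth muscle cells are the mural cells that wrap the small vessels of the brain, and 7 genes that mark them were compared between Il18-/- and Il18+/+ mice. The genes were Pdgfrb, Rgs5, Kcnj8, Abcc9, Vtn, Acta2 and Myh11. Probes were assigned to them through the accession printed for each probe, and every gene was read by 1 probe, so 7 of the 15737 named genes measured on both arrays are described. The Il18-/- sample was total RNA pooled from 7 male mice of the C57Bl/6 N background at 12 weeks of age without the cytokine interleukin-18. The Il18+/+ sample was RNA pooled from 7 male wild-type mice of the same background and age. Each pool was read on its own Agilent one-colour array after Cy3 labelling. With 1 array per genotype the differences below carry no replicate check and no test, and precision is limited by the array number.

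Values are processed fluorescence intensities, or levels, which are log2 intensities minus the 75th percentile of the array. A difference is the Il18-/- level minus the Il18+/+ level, and a gene was counted as lower or higher at 1.5-fold or more. The labels name the tissue as hippocampus, whereas the extraction protocol speaks of prefrontal cortex. Markers of both were well above background on both arrays, namely all 11 hippocampal genes and all 10 neocortical genes that could be named, with median differences of 0.16 and -0.15. Of the hippocampal genes Iyd was 1.81-fold higher at dim levels of -4.54 in Il18-/- and -5.40 in Il18+/+, and Ccn3, Cpne7, Lct and Zbtb20 differed by -0.46, -0.44, 0.41 and -0.07. Of the neocortical genes Ccn2, Etv1, Rorb and Bcl11b differed by -0.53, -0.30, -0.27 and 0.22, and none reached 1.5-fold. The probe for Il18 itself read -0.11 in Il18-/- and 1.38 in Il18+/+, a difference of -1.49, and its position relative to the deletion was not checked here. The arrays are described by 65.4% of probes well above background in Il18-/- and 67.2% in Il18+/+. Over all measured genes the median difference was 0.01, and 90% of genes lay between -0.45 and 0.33.

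Mural cells are recruited to growing vessels by platelet-derived growth factor B from the endothelium, which acts on the receptor encoded by Pdgfrb. Capillary pericytes support the blood-brain barrier, while smooth muscle cells of arterioles contract through smooth muscle actin and myosin and set local blood flow. Brain pericytes are also rich in an ATP-sensitive potassium channel built from the pore subunit Kcnj8 and the sulfonylurea receptor Abcc9. Transcription of many smooth muscle genes depends on serum response factor, which binds CArG boxes and is helped by the cofactor myocardin and by myocardin-related factors.

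The sequences around the transcription start of the contractile gene Acta2 and of the channel pair Kcnj8 and Abcc9 are shown because Acta2 and Abcc9 were the members outside the range of genes of similar brightness, and because Kcnj8 is the partner and direct neighbour of Abcc9. They are RefSeq windows of GRCm38.p6 from 250 bases before to 50 bases after the start. Acta2 is at chr19:34255324-34255623, Kcnj8 at chr6:142571565-142571864 and Abcc9 at chr6:142702225-142702524, all on the minus strand. Capitals mark GGAATG, the core of the MCAT element bound by TEAD factors, and 10-base CArG-like boxes with 1 of the inner 6 bases being G or C. Both strands were searched.
Acta2: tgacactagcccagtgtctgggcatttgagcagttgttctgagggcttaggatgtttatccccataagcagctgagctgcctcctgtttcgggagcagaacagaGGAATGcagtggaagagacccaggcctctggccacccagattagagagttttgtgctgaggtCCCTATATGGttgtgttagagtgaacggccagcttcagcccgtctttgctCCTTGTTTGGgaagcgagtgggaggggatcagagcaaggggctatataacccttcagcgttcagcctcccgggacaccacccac
Kcnj8: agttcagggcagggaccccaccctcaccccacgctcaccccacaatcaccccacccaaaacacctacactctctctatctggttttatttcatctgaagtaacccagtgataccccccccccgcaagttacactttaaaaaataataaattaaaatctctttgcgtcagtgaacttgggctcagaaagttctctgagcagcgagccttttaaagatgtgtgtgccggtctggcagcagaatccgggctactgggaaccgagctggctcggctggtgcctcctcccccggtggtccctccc
Abcc9: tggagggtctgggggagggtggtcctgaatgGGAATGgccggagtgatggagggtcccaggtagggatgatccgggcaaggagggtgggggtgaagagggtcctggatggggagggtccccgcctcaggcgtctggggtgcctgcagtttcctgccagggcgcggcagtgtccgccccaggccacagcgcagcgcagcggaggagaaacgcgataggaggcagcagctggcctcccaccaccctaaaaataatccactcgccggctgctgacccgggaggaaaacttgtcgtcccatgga
Acta2 held 2 CArG-like boxes, CCCTATATGG beginning at position -84 from the start and CCTTGTTTGG at position -34, and 1 GGAATG. Abcc9 held 1 GGAATG, and Kcnj8 held neither motif. Of 32851 promoter windows of the same length, 8.5% held such a CArG-like box, 1.63% held an exact CArG box and 14.7% held GGAATG. Windows of 5 of the 7 genes were used. The Rgs5 window held neither motif, and that of Vtn held GGAATG at 2 places. These matches describe the letters of the windows, and binding of any factor was not measured.

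Of the 7 mural genes, 5 were lower and 2 were higher in Il18-/-, where 47.4% of all measured genes were lower and 52.6% higher. The signs of the 2 higher genes, Kcnj8 and Vtn, depended on the processing. Abcc9 was the 1 member past 1.5-fold, on the lower side, against 2.57% of all measured genes that were at least 1.5-fold lower and 1.68% that were at least 1.5-fold higher, or 4.25% either way. The median difference of the members was -0.28, against 0.01 for all measured genes. The smooth muscle genes Acta2 and Myh11 differed by -0.40 and -0.54, and the pericyte genes ranged from -0.63 for Abcc9 to 0.17 for Kcnj8. In bulk RNA, fewer cells of a type and less RNA per cell cannot be told apart.

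**Figure D1:**
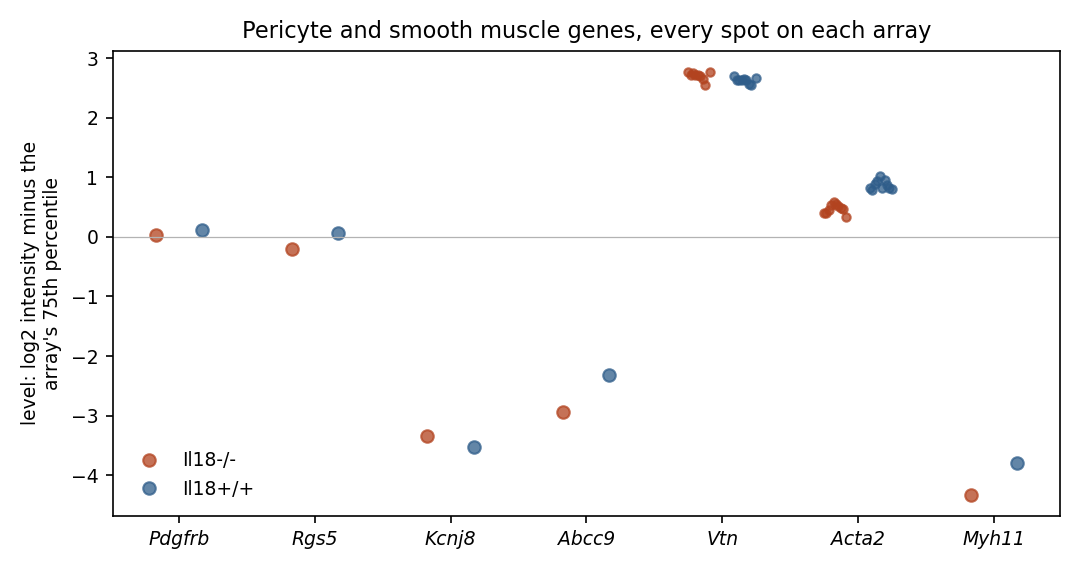
Level of each mural gene (log2 intensity minus the 75th percentile of the array) in Il18-/- and Il18+/+, 1 point per spot, with 10 spots for Vtn and Acta2, of which 1 spot of Vtn is left out as an outlier, and 1 spot for the others. Acta2, Abcc9, Myh11 and Rgs5 sit lower in Il18-/-, and levels of different genes are not comparable because each rests on its own probe.

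Acta2 encodes smooth muscle alpha-actin, the main thin filament protein of arteriolar smooth muscle. Its probe was spotted 10 times on each array. The intensity ranged from 887 to 1062 with a median of 980.2 in Il18-/-, and from 1198 to 1402 with a median of 1245 in Il18+/+. The spots of the arrays therefore did not overlap, and all 10 were lower in Il18-/-. The level was 0.47 in Il18-/- and 0.87 in Il18+/+, a difference of -0.40 ± 0.06 (SD over 10 spots) or 1.32-fold lower, with single spots between -0.48 and -0.27. This spread covers spotting and scanning within 1 pair of arrays and says nothing of differences between animals.

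Myh11, the smooth muscle myosin heavy chain that pulls on these filaments, was read by 1 spot. Its intensity was 35.3 in Il18-/- and 50.1 in Il18+/+, both well above background but dim. The difference was -0.54, or 1.45-fold lower, with a scanner error of 0.26 on the log2 scale. What is called scanner error here is the extraction software's own estimate for a single spot, carried over to the difference. It is not a spread measured from repeated spots, and it was 0.20 for Pdgfrb, Rgs5, Acta2 and Vtn alike. For a single spot of Acta2 or of Vtn it was larger than their SD over spots.

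Vtn encodes vitronectin, an adhesive glycoprotein of plasma that brain pericytes also make and that binds integrins. Its 9 usable spots had intensities from 4151 to 4825 with a median of 4635 in Il18-/-, and from 4064 to 4491 with a median of 4309 in Il18+/+. The ranges overlapped. The same spot was higher in Il18-/- in 9 of 9 cases, by up to 0.11, and the mean difference was 0.07 ± 0.03 (SD over 9 spots). The sign of so small a difference depends on the scaling, and with scaling to the spike-in controls it was -0.23.

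**Figure D2:**
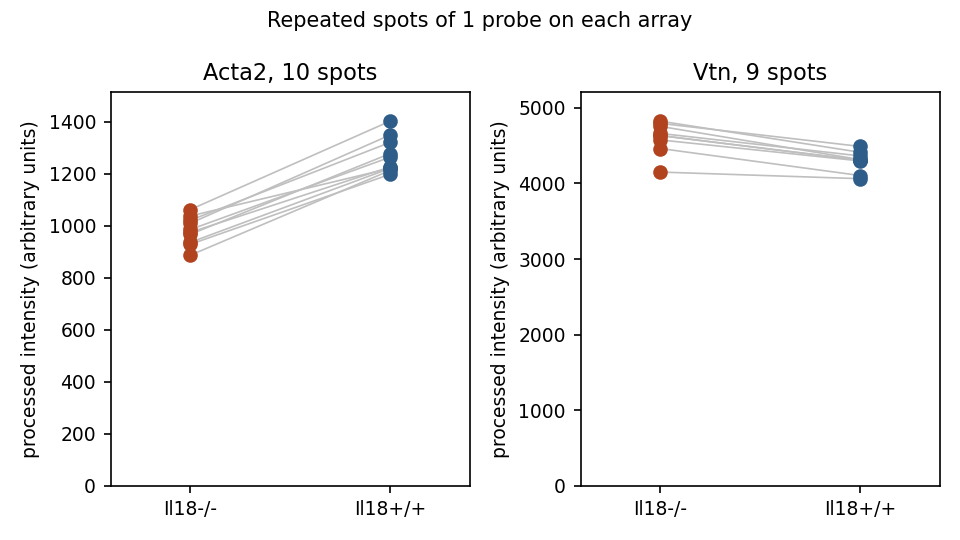
Processed intensity of the repeated spots of Acta2 (left) and Vtn (right), which lie at the same place on both arrays and are joined by grey lines, with Il18-/- left of Il18+/+. All 10 Acta2 spots are lower in Il18-/-, while the 9 usable Vtn spots are slightly higher and their ranges overlap.

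Abcc9 and Kcnj8 are partners in the vascular ATP-sensitive potassium channel, which opens when cellular energy falls and hyperpolarises the cell. Abcc9 had an intensity of 92.1 in Il18-/- and 139 in Il18+/+. The difference was -0.63, or 1.54-fold lower, with a scanner error of 0.22. Kcnj8 had an intensity of 69.4 in Il18-/- and 60.3 in Il18+/+. The difference was 0.17, within its scanner error of 0.23, and its sign was not stable, being -0.023 with normexp, -0.00038 with no background correction and -0.13 with spike-in scaling. A direction for Kcnj8 is therefore not given. The genes lie next to each other on chromosome 6. On their other sides, Cmas next to Abcc9 differed by -0.06 and Ldhb next to Kcnj8 by 0.08. The Abcc9 call was past the limit with the 75th percentile scaling and not with quantile, median or loess scaling, which gave -0.58, -0.57 and -0.55, nor with normexp or no background correction, which gave -0.33 and -0.42.

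Pdgfrb, the receptor tyrosine kinase by which pericytes are recruited and kept alive, had an intensity of 722 in Il18-/- and 749 in Il18+/+. The difference was -0.08, below its scanner error of 0.20. Rgs5, a GTPase-activating protein that damps G protein signals in pericytes and arterial smooth muscle, had 614 in Il18-/- and 727 in Il18+/+. The difference was -0.28, or 1.21-fold lower, with a scanner error of 0.20. Its neighbours on chromosome 1 are Rgs4, a close relative, which differed by -0.02, and Nuf2, a kinetochore gene, which differed by 0.18. Genes next to the other members differed by -0.07 for Csf1r beside Pdgfrb and by 0.20 for Sebox beside Vtn. Both neighbours of Acta2 were lower, with differences of -0.17 for Stambpl1 and -0.28 for Fas. Beside Myh11, Nde1 differed by -0.31 and Cep20 by 0.28.

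How far genes of a similar brightness scattered gives these values a scale. For each member, the middle 90% of all genes within 0.5 of its mean level was taken. Acta2 lay below this range, which ran from -0.27 to 0.24 over 2008 genes, and Abcc9 lay below its range of -0.56 to 0.50 over 1691 genes. The other 5 members lay within theirs, including Myh11, whose range was -0.72 to 0.58. Among genes as bright as Myh11, 10.6% were at least 1.5-fold lower, against 0.996% among genes as bright as Acta2. For genes near Abcc9 in brightness, 4.44% passed this limit downwards and 4.02% upwards. Repeated spots of other probes at these levels had a median SD of the difference of 0.20 near Myh11, 0.14 near Abcc9, 0.19 near Kcnj8 and 0.07 near Acta2.

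**Figure D3:**
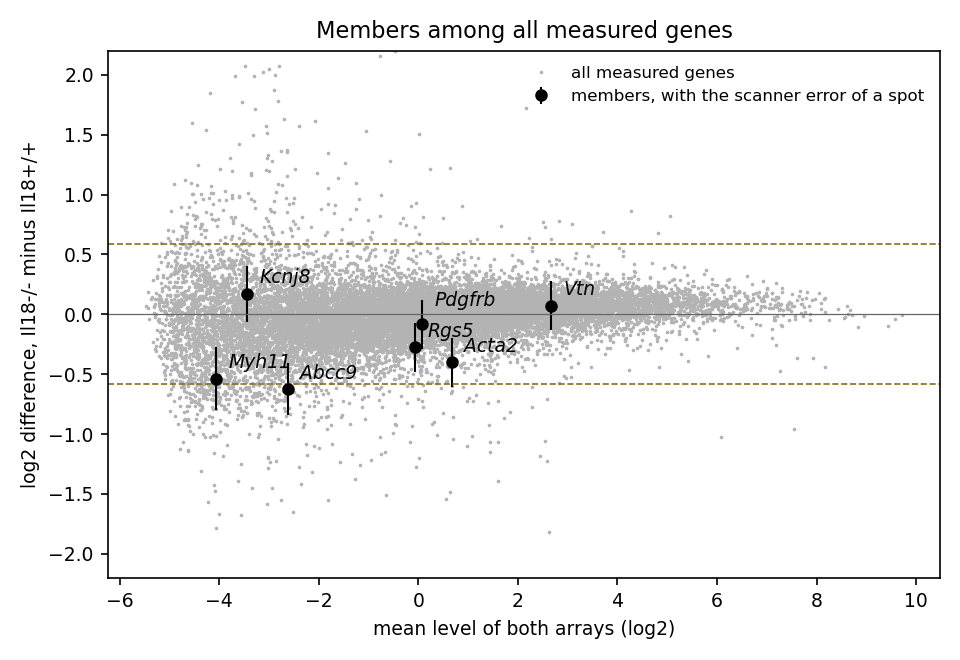
Log2 difference of Il18-/- minus Il18+/+ (vertical) against the mean level of both arrays (horizontal, log2) for all measured genes in grey and the 7 members in black, with bars of the scanner error of a spot and dashed lines at 1.5-fold. Scatter widens towards dim genes, where Myh11, Abcc9 and Kcnj8 lie, and 37 genes beyond 2.2 on the vertical axis are not drawn.

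Neighbouring spots on the glass were looked at because local faults can shift a spot. Among the 18 nearest spots of Abcc9, 1 was at least 2-fold lower in Il18-/-, as was 1 near Myh11, and none was near Pdgfrb or Rgs5. Around the 10 Acta2 spots 6 of 180 neighbours were at least 2-fold lower. The median difference of the neighbours was 0.04 for Abcc9, -0.08 for Myh11 and 0.02 for Acta2.

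Other genes of the smooth muscle apparatus were taken as a list of 20, of which 14 were measured, 8 lower and 6 higher, with a median of -0.07. At 1.5-fold 1 was lower and 1 was higher. Aoc3, the amine oxidase VAP-1 of smooth muscle and endothelium, was 2.13-fold lower, at dim levels of -4.39 in Il18-/- and -3.30 in Il18+/+. Sncg, which encodes gamma-synuclein and is also made by neurons, was 1.51-fold higher. Ppp1r12b, a myosin phosphatase subunit, and Cnn1, the actin-binding calponin of smooth muscle, differed by -0.57 and -0.51.

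The remaining contractile genes were divided. Tpm2, a tropomyosin, differed by -0.40, Smtn, which encodes smoothelin, by -0.36 and Cald1, which encodes caldesmon, by -0.36, and both probes of each were lower. Tagln, the actin-bundling protein transgelin, differed by 0.01 and Myl9, a regulatory myosin light chain, by -0.07. Mylk, the kinase of that light chain, differed by 0.21. The Myl9 window held 1 exact CArG box, CCTAATAAGG, and 1 CArG-like box, CCTTGTAAGG. Windows of 16 of the 20 genes of this list were searched, and Myl9 was the 1 gene with either box. Tagln, Actg2, Aoc3 and Map3k7cl had no window and were not searched. Of all promoter windows 9.98% held either box. The list was thus split by sign, though genes close to 0, such as Tagln and Myl9, weigh the same in these counts. Apart from Sncg, the higher genes differed by at most 0.21, the value of Mylk, while the lower genes ran to -1.09 for Aoc3. The members Acta2 and Myh11 were both lower. Desmin, phospholamban and leiomodin genes (Des, Pln, Lmod1) were not well above background on either array.

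Close relatives of Acta2 were looked at because actin genes share most of their coding sequence. Actg2, the enteric smooth muscle actin, and Actc1, the cardiac actin, were not well above background on either array. Acta1, the skeletal muscle actin, differed by 0.39. Of the striated muscle list 11 of 14 genes were measured, 4 lower and 7 higher, with a median of 0.16. Myh4 differed by 0.50, Mb by 0.44, Tnnt3 by 0.34 and Myh7 by -0.30, and none reached 1.5-fold.

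Regulators of smooth muscle genes differed little. Of 12 symbols 10 could be named as genes. Of these 9 were measured, 6 lower and 3 higher, with a median of -0.07 and none at 1.5-fold. Srf, the serum response factor, differed by -0.05, and its cofactors Mrtfa and Mrtfb by -0.10 and -0.22. The probes of Mrtfb disagreed, at -0.59 and 0.15. Tgfbr2 and Tgfb1, a receptor and a ligand of transforming growth factor beta signalling, differed by -0.18 and -0.17. Fhl2, a LIM protein that binds serum response factor, differed by 0.25. Myocd, which encodes myocardin, was not well above background on either array.

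Other pericyte genes showed no common shift. Of 20, 19 were measured, 12 lower and 7 higher, with a median of -0.02 and none at 1.5-fold. Ggt1, a gamma-glutamyltransferase of brain microvessels, differed by -0.49, at dim levels. Anpep, the aminopeptidase CD13 on pericytes, differed by -0.40. Zic1, a transcription factor gene, differed by 0.49 and Mcam, the adhesion molecule CD146, by 0.47. The probes of these last genes disagreed in size, at 0.04 and 0.94 for Zic1 and at 0.19 and 0.75 for Mcam. Higd1b, a mitochondrial protein gene used as a pericyte marker, differed by -0.05, Cspg4, the proteoglycan NG2, by 0.10, and Notch3, the mural Notch receptor, by -0.11. Enpep, the angiotensin-cleaving aminopeptidase A, was well above background in Il18-/- only, at least 1.58-fold higher. For this bound the dim array was set to its own reading or to the faintest signal well above background, whichever was greater. The bound leaves out the error of the detected spot, and its direction follows from detection in a single genotype.

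Genes of platelet-derived growth factor signalling were close to 0 in most cases. Of 11 genes 10 were measured, 6 lower and 4 higher, with a median of -0.05 and none at 1.5-fold. Pdgfb, the endothelial ligand of Pdgfrb, differed by -0.05, and Pdgfa, a ligand of the alpha receptor, by -0.09. Pdgfra, the alpha receptor of oligodendrocyte precursors and fibroblasts, differed by 0.11, Pdgfrl, a receptor-like gene, by 0.19, and Ptpn11, the phosphatase SHP2, by 0.15. Pik3r1, a regulatory subunit of phosphoinositide 3-kinase, differed by -0.50 and the kinase gene Src by -0.46, each by 1 probe. Pdgfd, another ligand of Pdgfrb, was well above background in Il18+/+ only, with levels of -5.75 in Il18-/- and -4.16 in Il18+/+. By the bound used for Enpep, which leaves out spot error, it was at least 2.48-fold lower in Il18-/-. Its direction follows from detection in a single genotype.

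Channel and G protein relatives of Kcnj8, Abcc9 and Rgs5 differed little. Kcnj11 and Abcc8, the neuronal and endocrine counterparts of the channel subunits, differed by -0.11 and 0.10. The 4 measured genes of the channel list, which also held Kcnj9 at -0.08 and Kcnj12 at 0.08, had a median of 0.00, with 2 lower and 2 higher. Of 13 other Rgs genes 11 were measured, 6 lower and 5 higher, with a median of -0.02. Rgs20 differed by -0.36, Rgs2 by 0.27, Rgs14, a CA2 hippocampal gene, by 0.20 and Rgs16 by -0.14. Rgs10 differed by 0.13. None of either list reached 1.5-fold.

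Genes whose proteins bind vitronectin were lower in all measured cases, 7 of 9 genes being measured, with a median of -0.37. Of all measured genes 47.4% were lower. Plaur, the urokinase receptor, was 1.66-fold lower and was the 1 gene past 1.5-fold. Itgav, the integrin alpha chain of the vitronectin receptors, differed by -0.51, with probes at -0.90 and -0.13. The integrin beta chain genes Itgb1 and Itgb5 differed by -0.37 and -0.03. Itgb5 was the bright gene of the list, at 2.68 in Il18-/- and 2.71 in Il18+/+, and the others lay at -2.03 or below on both arrays. Plaur was dim, at a level of -4.03 in Il18-/- and -3.30 in Il18+/+, and the list median moved to -0.20 with normexp background correction and to -0.17 with a stricter filter on dim probes.

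**Figure D4:**
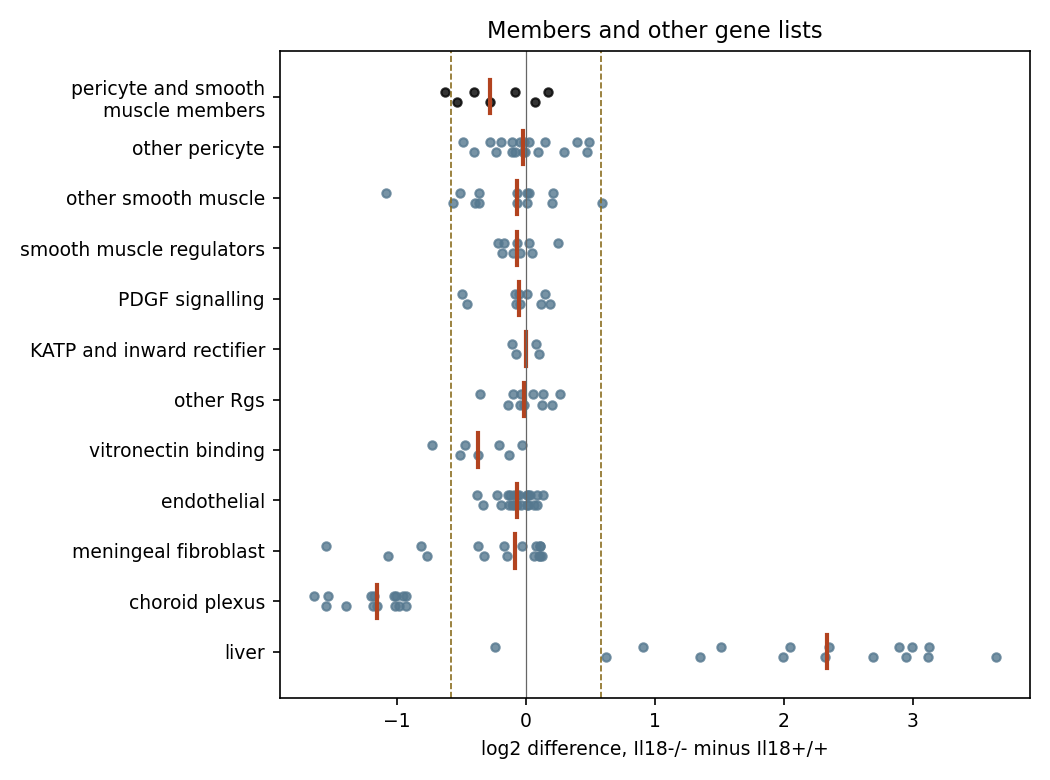
Log2 difference of Il18-/- minus Il18+/+ (horizontal) for each measured gene of 12 lists, 1 point per gene, with the list median as a red bar and dashed lines at 1.5-fold. The members have a median of -0.28, the endothelial list is close to 0 at -0.07, the choroid plexus list is at -1.15 and the liver list at 2.34.

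Cell types that adjoin mural cells were set beside them. Endothelial genes, which line the same vessels, were measured in 23 of 23 cases, 14 lower and 9 higher, with a median of -0.07 and none at 1.5-fold. Slco1c1, a thyroxine transporter, differed by -0.38, Bsg, which encodes basigin, by -0.33, Eng, which encodes endoglin, by -0.22 and Tie1, a receptor kinase gene, by -0.20. Flt1 and Slc2a1, a vascular endothelial growth factor receptor and the glucose transporter of the barrier, differed by -0.10 and -0.14. The 9 higher genes, among them Cldn5 and Tek at 0.08 each, differed by at most 0.13, the value of Emcn. The summed endothelial intensity, in multiples of the 75th percentile of the array, was 52.4 in Il18-/- and 56.0 in Il18+/+. The mural members summed to 10.07 in Il18-/- and 10.53 in Il18+/+. Vtn, at levels of 2.70 and 2.63, weighs heavily in that sum. Other pericyte genes summed to 11.70 in Il18-/- and 10.94 in Il18+/+, and other smooth muscle genes to 15.15 and 15.21. The difference between the mural and the endothelial values was not tested, for want of replicates.

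Meningeal and perivascular fibroblast genes were measured in 16 of 17 cases, 9 lower and 7 higher, with a median of -0.09, and their summed intensity was 22.5 in Il18-/- and 30.7 in Il18+/+. Igf2 was 2.93-fold, Igfbp2 2.10-fold, Mgp 1.76-fold and Slc13a4 1.71-fold lower. No other measured gene of the list reached 1.5-fold, and the cell source of these 4 genes was not tested. Slc13a4, Mgp and Igfbp2, at levels of 2.67, 2.25 and 1.97 in Il18+/+, weigh heavily in the sum. The collagen genes Col1a1, Col1a2 and Col3a1 were split, at -0.32, -0.17 and 0.11, and Dcn, which encodes decorin, differed by -0.37. The 7 higher genes, Col3a1 among them, differed by at most 0.12, the value of Islr. Choroid plexus epithelium genes were lower in 15 of 15 cases, all past 1.5-fold, and their summed intensity was 196 in Il18-/- and 389 in Il18+/+. Their differences ran from -1.65 for Cldn2, which encodes a claudin, to -0.93 for Otx2, a homeobox gene. Next to Cldn2 came F5 at -1.55, Aqp1 at -1.54 and Kcnj13 at -1.40. Ttr at -0.96 and Enpp2 at -1.02 had levels of 7.06 and 5.58 in Il18-/- and 8.01 and 6.60 in Il18+/+. Folr1, Kl, Clic6, Slc4a5, Kcne2, Prlr, Sostdc1 and Calml4 lay within the range above. Choroid plexus and meninges contain vessels with smooth muscle, and the part of these tissues in the Acta2, Myh11 and Abcc9 differences was not tested.

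Liver genes bear on Vtn, since hepatocytes are the main source of plasma vitronectin. Of 20 liver genes 16 were measured, 15 at least 1.5-fold higher and 1 lower, with a median of 2.34, and their summed intensity was 13.1 in Il18-/- and 3.50 in Il18+/+. Alb, which encodes albumin, was 12.5-fold higher. Ambp, Ahsg and Fgb differed by 3.13, 3.12 and 2.99. The other higher genes were Serpina1c, Fgg, Serpina1a, Hp, Kng1, Itih4, Hpx, Apoh, Apoc3, Apoa2 and C3, of which C3 had the smallest difference, 0.62, with probes at 0.08 and 1.17. Fga differed by -0.24. Against these, Vtn was 1.05-fold higher. The part of liver transcripts in the Vtn signal was not tested.

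Blood cell genes were measured in 9 of 10 cases, 3 lower and 6 higher, with a median of 0.14. The platelet genes Gp9, Ppbp and Pf4 differed by -0.83, -0.44 and -0.17, and the neutrophil genes S100a9 and S100a8 by 1.33 and 0.96. Haemoglobin genes Hba-a1 and Hbb-bt differed by 0.18 and 0.14. Haemoglobin genes have near-identical copies, so the value of a single copy is uncertain.

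**Figure D5:**
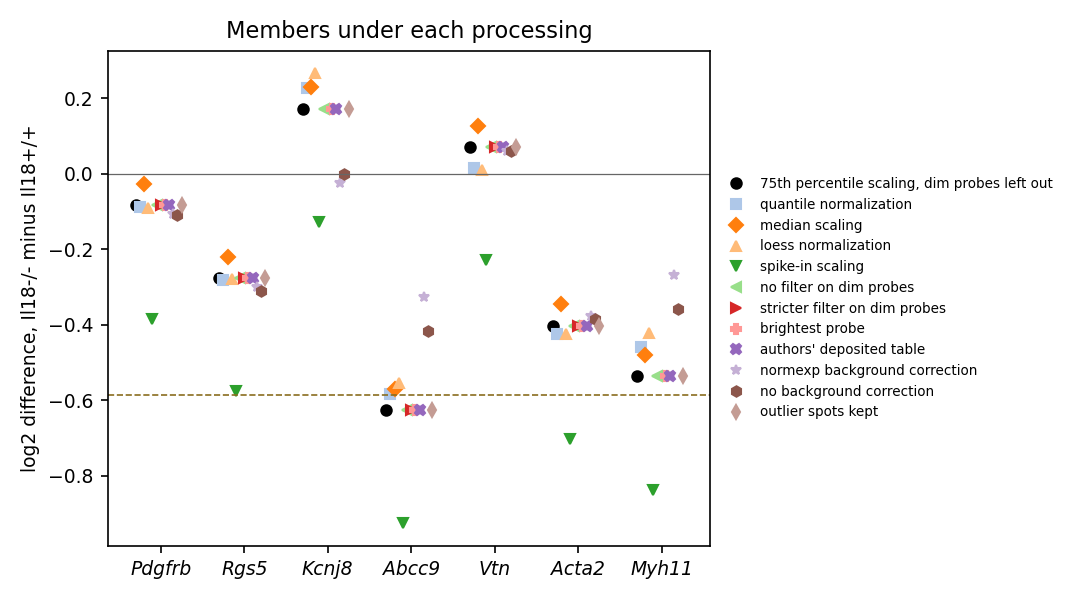
Log2 difference of Il18-/- minus Il18+/+ for each member under each processing, 1 symbol per processing, with a dashed line at 1.5-fold lower. Acta2 lies between -0.70 and -0.35 under all 12, Rgs5 between -0.58 and -0.22, while Kcnj8 and Vtn have values on both sides of 0.

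The processing mattered more for dim members than for bright ones. Acta2, Rgs5, Pdgfrb and Abcc9 were lower in Il18-/- under all 12 processings and Myh11 under the 11 that kept it. Several of these, namely the authors' table, the filters on dim probes and the choice of the brightest probe, cannot alter a gene with 1 probe. Myh11 ranged from -0.84 to -0.27 and Abcc9 from -0.92 to -0.33. Pdgfrb ranged from -0.38 to -0.03. Kcnj8 was higher under 8 of 11, and was -0.023 with normexp background correction, -0.00038 with no background correction and -0.13 with spike-in scaling. Spike-in scaling lowered every difference by 0.30 and put the median of all measured genes at -0.29. Vtn and Kcnj8 were above that median.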

How the data were processed

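Per the labels, each array carried Cy3-labelled RNA pooled from 7 mice. The deposited intensity values were extracted by Agilent's software Feature Extraction, version 10.10.1.1 (file headers and submitters' processing notes), on a design annotated with mm9. They were background-subtracted and detrended within each array. A second deposited table of the authors gives this intensity multiplied by 1.92 for Il18-/- and 2.05 for Il18+/+, and was used as an alternative.

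Of 62976 spots, 3671 control spots and outlier spots (177 in Il18-/-, 124 in Il18+/+) were left out. Intensities were set to log2, the 75th percentile of each array was subtracted (706.9 in Il18-/-, 692.0 in Il18+/+), and spots of a probe were averaged. Of 55681 probes, 27235 were named by matching accessions to RefSeq genes of GRCm38.p6. A gene was the mean of its probes well above background on both arrays, as 35632 probes were. Scanner errors are the software's own estimates and not measured spreads. Neither test nor count model was used.

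The 7 members, the 15 other lists and the alternatives were chosen with earlier results of these data known. Named genes were all members, and of each list up to 4 with the largest difference, up to 2 with the highest level and those past 1.5-fold, besides close relatives fixed with them. One gene that the rule names is not reported here. Other list genes were named for their role after their values were seen. Scripts were checked on simulated intensities. They ran in R 4.3.3 with limma 3.58.1 and in Python 3.11.15 with pandas 2.3.3, numpy 2.4.6 and matplotlib 3.10.9.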

Additional observations from a re-analysis of the deposited data

How the results depend on the processing

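No paired analysis was possible because each genotype had 1 array. Values were counted as moved when they shifted by at least 0.12, the median SD between probes of 1 gene, or when a count changed by over 1.5 times. Of 295 values under the alternatives 239 were not moved. Of these, 27 come from the authors' deposited table and are equal by construction. The differences of the members under the filters on dim probes and with the brightest probe are likewise equal by construction. Of the differences followed, those past 1.5-fold were Abcc9 and the choroid plexus and liver medians, and none changed sign. Single genes other than the members were not followed across the alternatives. Keeping outlier spots moved none. Leaving out single probes could not be run, since each member has 1 probe, and the stricter filter on dim probes removed Kcnj8 and Myh11. Depth in this design is signal over background, which was low for Myh11, Kcnj8 and Abcc9.

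The count of members past 1.5-fold, 1 in the report, was 0 with quantile, median and loess scaling, 0 with normexp, 0 with no background correction and 3 with spike-in scaling. With spike-in scaling the member median was -0.58, Pdgfrb -0.38, Rgs5 -0.58, Kcnj8 -0.13, Abcc9 -0.92, Vtn -0.23, Acta2 -0.70 and Myh11 -0.84. The list medians under it were -0.32 for other pericyte genes, -0.37 for other smooth muscle genes, -0.37 for smooth muscle regulators, -0.35 for PDGF signalling, -0.30 for potassium channels, -0.32 for Rgs genes, -0.67 for vitronectin binding, -0.37 for endothelium, -0.39 for meningeal fibroblasts, -1.45 for choroid plexus, 2.04 for liver, -0.14 for striated muscle, -0.16 for blood, -0.14 for hippocampus and -0.45 for neocortex. Each is 0.30 below its value in the report, by construction.

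With normexp Kcnj8 was -0.023, Abcc9 -0.33 and Myh11 -0.27, and the medians were -0.20 for vitronectin binding, -1.02 for choroid plexus, 1.61 for liver and 0.033 for striated muscle. With no background correction Kcnj8 was -0.00038, Abcc9 -0.42 and Myh11 -0.36, with 1.83 for liver and -0.0029 for striated muscle. The liver median was 2.52 with no filter and 1.85 with the stricter filter, and vitronectin binding -0.17 with the stricter filter and -0.21 with the brightest probe. The cause of these shifts was not tested.

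Over all genes 405 were lower and 264 higher. These counts were 1716 and 128 with spike-in scaling, 1357 and 815 with no filter, 157 and 99 with the stricter filter, 105 and 113 with normexp, and 147 and 131 with no background correction. Lower genes were 324 with quantile, 283 with loess and 318 with median scaling, and higher genes 311, 336 and 320.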
